A study of Mus musculus with 5 samples.

Results

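The genes described here are 8 costimulatory molecules of T cells, which were found by symbol among the 32285 gene features of the T cell libraries. All 8 were listed and detected. They are 4 receptors of the tumor necrosis factor (TNF) receptor family (Tnfrsf4, also called OX40 or CD134; Tnfrsf9, 4-1BB or CD137; Tnfrsf18, GITR; and Cd27), 2 ligands of the TNF family (Tnfsf8, CD30 ligand; and Cd40lg, CD40 ligand), and 2 receptors of the immunoglobulin family (Icos and Cd28). The question addressed was how the level of each one differed between T cell lineages, and within a lineage between tumors that responded to doxorubicin (DOX) and tumors that did not.

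The tumors were 4T1, a mouse mammary carcinoma line of BALB/c origin, implanted orthotopically in BALB/c mice aged 12 weeks, whose immune system is intact. DOX, an anthracycline that damages DNA, was given as 3 doses of 5 mg/kg, 3 days apart. After treatment some tumors grew little (sensitive) and others grew on (resistant), and both T cell libraries came from treated mice, so no untreated T cell library was set beside them. T cells were enriched from each kind of tumor by magnetic depletion of other cells, and cells from several tumors were pooled into 1 library of each kind, so each group had 1 library, differences between mice could not be measured, and no test between groups was possible. The intervals given are 95% intervals that cover counting error only.

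A T cell needs a signal through its antigen receptor and a costimulatory signal to become fully active. Cd28 is present on resting T cells and binds Cd80 and Cd86 on antigen-presenting cells. Cd27 is likewise present on resting T cells, whereas Icos, Tnfrsf4 and Tnfrsf9 are induced by activation, and Tnfrsf18 and Tnfrsf4 are known for high levels on regulatory T cells. The TNF receptor family members signal through TRAF adaptors to NF-kB. Cd40lg is the helper signal that CD4 T cells deliver to Cd40 on dendritic cells, macrophages and B cells.

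The sensitive library held 3949 barcodes and 31690845 unique molecular identifiers (UMIs), of which 3459 cells were kept, and the resistant library held 6116 barcodes and 35908799 UMIs, of which 3166 cells were kept. The median mitochondrial share over all barcodes came to 2.47% for sensitive and 8.95% for resistant tumors, and the mitochondrial limit removed 3.12% and 26.5% of barcodes. Among the T and NK cells kept, that share was still 2.56% against 5.64%, and its part in any difference between the libraries was not tested. The libraries shared 31 barcode sequences. There were 2082 sensitive and 1927 resistant T and NK cells.

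Lineage gates were set on UMIs of lineage genes alone. The CD8 gate held 1286 sensitive and 1586 resistant cells, the CD4 gate 181 and 46, the Foxp3+ gate 48 and 12, the gamma-delta gate 82 and 19, and the natural killer (NK) gate 77 and 43. The remaining 408 and 221 T and NK cells stayed outside the gates, mostly because Cd8 UMIs stood beside Cd4, Foxp3 or Trdc UMIs (185 and 117 cells) or because no gate gene was detected (194 and 93 cells). Genes that no gate used were checked against the labels. Il2ra and Ikzf2, both high in regulatory T cells, were highest in the Foxp3+ gate of both libraries (Il2ra at 733 and 592 CPM, the UMIs of a gene per 1000000 UMIs of the gate), and Cd163l1 of gamma-delta cells was highest in that gate (995 and 353 CPM), but the 12 resistant Foxp3+ cells also had 228 CPM of it on 10 UMIs. Within the CD4 gate Il2ra stood at 324 (sensitive) against 40.2 CPM (resistant), and Ikzf2 at 27.2 against 195 CPM. The CD4 gates thus differed between the libraries in these markers, and their part in the CD4 results was not tested. Klre1 and Eomes, chosen to check the NK gate, were highest there. Klre1 was at 129 and 227 CPM in NK against 104 and 108 CPM in CD8 cells, and Eomes at 129 and 134 against 28.6 and 25.4 CPM. Resistant gamma-delta cells also had 129 CPM of Klre1, 106 of Eomes and 247 of the cytotoxic gene Prf1, against 158 CPM of Prf1 in resistant CD8 cells. Whether NK-like cells entered that gate was not tested. Marker sums of B cells, macrophages, neutrophils, dendritic, endothelial, epithelial and fibroblast cells stayed between 0 and 106 CPM in every gate. Fibroblast markers summed to 57.5 to 70.6 CPM in the 5 sensitive gates and 17.9 to 46.0 CPM in the 5 resistant gates, and their part in the results was not tested.

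Before the levels, the positions of the genes are given (GRCm38, GENCODE vM21), because several members are neighbors. Tnfrsf4 (ENSMUSG00000029075, chr4:156013843-156016612, plus strand) and Tnfrsf18 (ENSMUSG00000041954, chr4:156026164-156028895, plus strand) lie 9551 bp apart with 0 coding genes between them. Tnfrsf9 (ENSMUSG00000028965, chr4:150914562-150946102, plus strand) and Tnfsf8 (ENSMUSG00000028362, chr4:63831308-63861347, minus strand) are on the same chromosome. Cd28 (ENSMUSG00000026012, chr1:60716800-60773359, plus strand) and Icos (ENSMUSG00000026009, chr1:60977927-61000320, plus strand) flank Ctla4, the inhibitory receptor that competes with Cd28 for Cd80 and Cd86. Cd27 (ENSMUSG00000030336, chr6:125232622-125237010, minus strand) and Cd40lg (ENSMUSG00000031132, chrX:57212143-57224042, plus strand) stand alone.

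Tnfrsf4 and Tnfrsf18 are neighbors with gate profiles much alike, although Icos on another chromosome was about as like Tnfrsf4 (r of 0.91 for both). The bases just upstream of both neighbors are shown, from RefSeq windows on GRCm38.p6, which held 5 of the 8 members. Each stretch ends before the first transcript start of RefSeq and of GENCODE, and capitals would mark a match to the motifs TGANTCA (AP-1), GGGA and CC with any 4 bases between (NF-kB), TGTTTAC (forkhead) or TGTGGT (RUNX) on either strand.
Tnfrsf4, chr4:156013445-156013694, plus strand: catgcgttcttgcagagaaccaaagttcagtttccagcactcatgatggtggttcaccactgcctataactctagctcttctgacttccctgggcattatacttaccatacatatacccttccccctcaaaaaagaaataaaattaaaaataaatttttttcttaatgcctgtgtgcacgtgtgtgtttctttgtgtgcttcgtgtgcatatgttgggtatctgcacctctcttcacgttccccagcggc
Tnfrsf18, chr4:156026072-156026163, plus strand: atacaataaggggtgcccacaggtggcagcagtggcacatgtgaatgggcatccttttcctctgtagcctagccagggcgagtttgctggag
Neither stretch held any of the 4 motifs. Of 32851 RefSeq windows cut to the 250 bases used for Tnfrsf4, 6.75% held the AP-1 letters, 17.6% the NF-kB letters, 3.17% the forkhead letters and 14% the RUNX letters. For the 92 bases used for Tnfrsf18 the shares were 2.26%, 5.63%, 1.19% and 5.52%.

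The first comparison asked in which lineage each member was highest. Foxp3+ and CD4 cells carried the most Tnfrsf4, Tnfrsf18 and Icos, CD4 cells outside the Foxp3+ gate had the highest Cd40lg and Tnfsf8, and Cd27 was the one member whose level was lower in CD4 than in CD8 cells of both libraries. Against CD8 cells, 4 members passed 2-fold higher in CD4 cells in both libraries and 1 passed 2-fold lower, where 2.57% and 4.89% of the genes with at least 20 UMIs did so. In Foxp3+ cells 3 members passed higher and 0 lower (5.61% and 10.5% of genes). In gamma-delta cells 0 members passed higher and 2 lower (2.8% and 8.34% of genes), and in NK cells 0 passed higher and 4 lower (3.24% and 5.95% of genes).

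**Figure D1:**
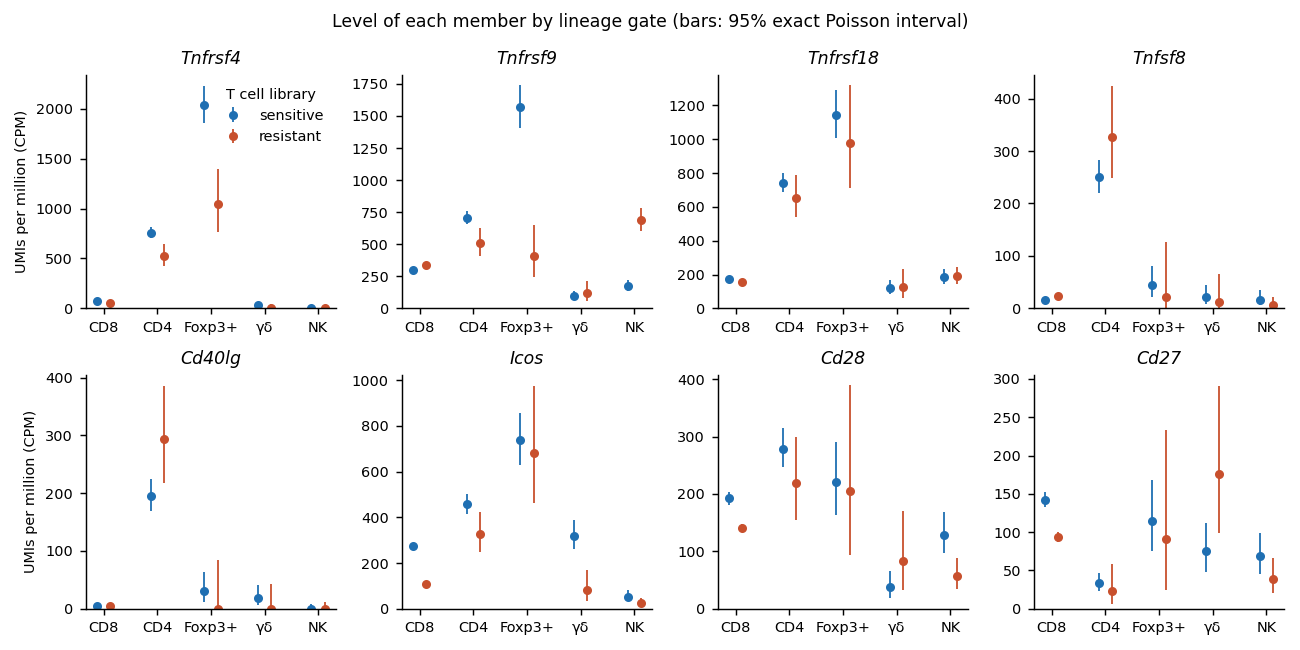
Level of each member (CPM, linear axis from 0) in the 5 lineage gates of the sensitive (blue) and resistant (red) T cell library, 1 library each, with 95% exact Poisson bars. Tnfrsf4, Tnfrsf18 and Icos peaked in Foxp3+ cells, Cd40lg and Tnfsf8 in CD4 cells, and Tnfrsf9 in Foxp3+ cells of the sensitive but NK cells of the resistant library.

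Tnfrsf4, the OX40 receptor, stood at 75.4 CPM in CD8, 760 in CD4, 2035 in Foxp3+, 31.3 in gamma-delta and 0 in NK cells of the sensitive library. In the resistant library the same gates gave 51.3, 529, 1048, 0 and 0 CPM. Foxp3+ was the highest and CD4 the next gate in both libraries. The ratio of Foxp3+ to CD8 cells was 27 (23.7 to 30.8) in the sensitive library against 20.4 (14.8 to 27.7) for resistant tumors, and that of CD4 to CD8 cells 10.1 (8.98 to 11.3) and 10.3 (8.15 to 12.9). NK cells had no Tnfrsf4 UMI in either library, so CD8 cells were at least 10.3-fold and at least 5.74-fold higher than the floor of 3 UMIs per gate and library. In resistant gamma-delta cells a count of 0 only set CD8 cells at least 1.45-fold higher, so the call below 2-fold rests on that 0. A Tnfrsf4 UMI was found in 93.8% of sensitive and 83.3% of resistant Foxp3+ cells, 75.7% and 58.7% of CD4 cells, and 14.4% and 14.2% of CD8 cells. It was found in 2.42% and 1.73% of fibroblast or mural cells, which should lack the gene and whose median depth was 13460 and 13726 UMIs against 4024.5 and 4676 in CD8 cells.

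Tnfrsf18, the GITR receptor encoded next to Tnfrsf4, stood at 176 CPM in CD8, 743 in CD4, 1143 in Foxp3+, 122 in gamma-delta and 185 in NK cells of the sensitive library. The resistant library gave 155, 655, 979, 129 and 191 CPM in that order. The levels were close between the libraries in every gate, and Foxp3+ came first and CD4 second in both. The ratio of CD4 to CD8 cells was 4.22 in both libraries (intervals 3.84 to 4.63 and 3.45 to 5.10), and that of Foxp3+ to CD8 cells 6.49 (5.65 to 7.44) and 6.3 (4.54 to 8.53). Unlike Tnfrsf4, Tnfrsf18 was present in NK cells, with a UMI in 62.3% of sensitive and 65.1% of resistant cells, against 2.55% and 3.47% of fibroblast or mural cells. Over the 10 profiles of gate and library, the logged levels of Tnfrsf4 and Tnfrsf18 had a Pearson r of 0.91, a description over profiles that share 2 libraries. In single CD8 cells with a Tnfrsf4 UMI, a Tnfrsf18 UMI was found in 80% (sensitive) and 75.6% (resistant), against 41.2% and 45.0% of CD8 cells without one. Cells with more UMIs show more of both genes, and the part of depth in that gap was not tested.

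Tnfrsf9, the 4-1BB receptor, had different highest gates in the 2 libraries, as Cd27 did. In the sensitive library it stood at 296 CPM in CD8, 706 in CD4, 1567 in Foxp3+, 97 in gamma-delta and 178 in NK cells. In the resistant library these values were 341, 512, 410, 118 and 686 CPM. Foxp3+ cells led in the sensitive library, and NK cells led in the resistant one, where Foxp3+ cells were not separated from CD4 (1.25, 0.746 to 2.20) or CD8 cells, although CD4 and CD8 cells were (1.5, 1.2 to 1.85). The Foxp3+ to CD8 ratio was 5.3 (4.71 to 5.94) among sensitive cells but 1.2 (0.712 to 1.91) among resistant cells, and the NK to CD8 ratio 0.601 (0.469 to 0.76) and 2.01 (1.75 to 2.30). Single cells weighed on these values, since 62 of the 230 UMIs of resistant NK cells came from 1 cell. With cells thinned to 1000 UMIs and gated anew, resistant NK cells no longer led, with 10 UMIs in 29 cells against 11 in 24 CD4 and 5 in 10 Foxp3+ cells. Gamma-delta cells were below CD8 cells by more than 2-fold in both libraries, at ratios of 0.328 and 0.345. Outside T and NK cells, Tnfrsf9 was also found in macrophages or monocytes, at 174 (sensitive) and 173 CPM (resistant), in neutrophils at 117 and 59.2 CPM, in dendritic cells at 17.4 and 97.4 CPM, in endothelial cells at 81.8 and 496 CPM (7 UMIs in 6 cells and 64 UMIs in 7 cells, of which 4 had one) and in fibroblast or mural cells at 23.3 and 7.36 CPM.

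Cd27, the receptor for Cd70, had another order than the other TNF receptors. It stood at 142 CPM in CD8, 33.3 in CD4, 115 in Foxp3+, 75.1 in gamma-delta and 68.3 in NK cells of the sensitive library. The resistant library gave 93.6, 23.0, 91.1, 177 and 38.8 CPM. CD4 cells had the lowest level in both libraries, and the ratio of CD4 to CD8 cells was 0.234 (0.16 to 0.331) and 0.246 (0.0668 to 0.631), the second on 4 UMIs, too few to separate resistant CD4 from NK cells. After thinning to 1000 UMIs the resistant ratio was 0.89 on 2 CD4 UMIs, which ended that call. NK cells were at 0.48 (0.317 to 0.698) and 0.414 (0.22 to 0.712) of the CD8 level, and the resistant ratio turned to 1.47 after thinning, on 4 UMIs. Foxp3+ cells did not share the low level of CD4 cells in the sensitive library, with a ratio to CD8 cells of 0.806 (0.524 to 1.19). Their resistant ratio of 0.973 (0.265 to 2.5) was on 4 UMIs, and its interval overlapped that of CD4 cells. After thinning, resistant Foxp3+ cells had 0 Cd27 UMIs and resistant CD4 cells 2. CD8 cells came first in the sensitive library, not separated from Foxp3+ cells (1.24, 0.841 to 1.91), and gamma-delta cells in the resistant one, where 7 of their 15 UMIs came from 1 cell. A UMI of Cd27 was found in 37.8% and 35.2% of CD8 cells and in 13.3% and 6.52% of CD4 cells, against 0.848% and 2.05% of fibroblast or mural cells.

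Cd40lg, the ligand through which helper T cells activate antigen-presenting cells, was highest in CD4 cells by a wide margin. CD4 cells stood at 196 CPM (sensitive) and 293 CPM (resistant), and CD8 cells at 5.55 and 4.39 CPM. The CD4 to CD8 ratio was 35.2 (24.5 to 52.0) and 66.8 (43.4 to 103). Foxp3+ cells held 7 sensitive UMIs (30.9 CPM) and 0 resistant ones, gamma-delta cells 6 (18.8 CPM) and 0, and NK cells 0 and 0. NK cells passed the 2-fold rule only because their count was 0, and the floor of 3 UMIs was above the CD8 level in both libraries, so no fold is given there. Among CD4 cells 51.4% (43.9 to 58.9) and 45.7% (30.9 to 61.0) had a Cd40lg UMI, against 1.87% and 1.89% of CD8 cells and 0.242% and 0.787% of fibroblast or mural cells. In the resistant CD4 gate 14 of 51 Cd40lg UMIs came from 1 cell.

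Tnfsf8, the ligand of CD30, was also highest in CD4 cells of both libraries, and the other gates were not separated from their neighbors in the order. CD4 cells stood at 250 CPM (sensitive) and 328 CPM (resistant), and CD8 cells at 15.7 and 23.1 CPM. The CD4 to CD8 ratio was 15.9 (12.6 to 20.3) and 14.2 (10.4 to 19.0). Foxp3+ cells, which gave 44.1 and 22.8 CPM, were 5.66-fold (3.03 to 12.0) below CD4 cells in the sensitive library, and the resistant value rested on 1 UMI. The share of CD8 cells with a Tnfsf8 UMI was 4.74% and 9.46%, against 8% and 10.4% of the deeper fibroblast or mural cells, so no expression in CD8 cells is read from it. By level, fibroblast or mural cells gave 8.25 and 8.55 CPM, below the CD8 level but within the intervals of NK cells in both libraries (6.86 to 35.2 and 0.722 to 21.5 CPM). Over the 10 profiles Tnfsf8 and Cd40lg had an r of 0.97, and each was the gene most like the other among 7028 genes with at least 200 UMIs. In single CD4 cells with a Cd40lg UMI, Tnfsf8 was found in 48.4% of sensitive and 47.6% of resistant cells, against 37.5% and 32% of CD4 cells without one.

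Icos, the inducible costimulator, stood at 274 CPM in CD8, 457 in CD4, 737 in Foxp3+, 319 in gamma-delta and 53.6 in NK cells of the sensitive library. The resistant library gave 111, 328, 683, 82.4 and 23.9 CPM. Foxp3+ cells came first, CD4 cells second and NK cells last in both. The Foxp3+ to CD8 ratio was 2.69 (2.28 to 3.16) and 6.18 (4.15 to 8.88), and that of CD4 to CD8 cells 1.67 (1.5 to 1.85) and 2.96 (2.23 to 3.87), so CD4 cells passed 2-fold in the resistant library only. Gamma-delta and CD8 cells were not separated, with ratios of 1.16 (0.944 to 1.42) and 0.745 (0.299 to 1.54). NK cells were below CD8 cells by more than 2-fold in both, at 0.196 and 0.216.

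Cd28, the receptor for Cd80 and Cd86, was higher in CD4 than in CD8 cells of both libraries, at ratios of 1.45 (1.27 to 1.66) and 1.55 (1.09 to 2.15). The sensitive library gave 192 CPM in CD8, 279 in CD4, 221 in Foxp3+, 37.5 in gamma-delta and 129 in NK cells. The resistant library gave 141 (CD8), 218 (CD4), 205 (Foxp3+), 82.4 (gamma-delta) and 56.7 CPM (NK). CD4 and Foxp3+ cells were not separated in either library (ratios 1.27, 0.933 to 1.75, and 1.07, 0.506 to 2.51), nor were Foxp3+ and CD8 cells. The lowest gate was gamma-delta in the sensitive and NK in the resistant library, on 12 and 19 UMIs, and resistant NK cells were not separated from resistant gamma-delta cells (1.45, 0.516 to 3.61). Cd28 and Icos, which flank Ctla4 on chromosome 1, had an r of 0.57 over the 10 profiles.

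The members also added up differently in single cells. A sensitive CD4 cell had UMIs of 4.42 of the 8 members on average and a resistant one 3.72, and Foxp3+ cells had 4.33 and 3.92. The means were 2.37 and 2.43 in CD8, 1.26 and 1.47 in gamma-delta and 1.86 and 1.88 in NK cells. With each cell thinned to 1000 UMIs, the means became 2.30 and 2.07 in CD4, 2.8 and 2.17 in Foxp3+, 0.9 and 0.733 in CD8, 0.598 and 0.421 in gamma-delta and 0.532 and 0.581 in NK cells, so CD4 and Foxp3+ cells stayed above the other gates at equal depth. The thinning left out 10 sensitive and 4 resistant CD8 cells, 2 and 0 CD4 cells and 3 and 0 Foxp3+ cells with fewer UMIs.

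The second comparison set the sensitive against the resistant library within each gate. Icos was the member that differed most in the CD8 gate, the largest one. There 2 of 8 members passed 1.5-fold higher in the sensitive library (Icos and Cd27) and 0 lower, where 8.46% and 4.92% of genes did so. In CD4 cells 0 of 8 members passed in either direction (24.1% and 14.4% of genes), and in Foxp3+ cells 2 of the 6 with enough UMIs passed higher (Tnfrsf4 and Tnfrsf9) and 0 lower (30.7% and 15.3%). In gamma-delta cells Icos passed higher and Cd27 lower, 1 each of the 4 with enough UMIs (30.5% and 11.8% of genes). Neither was called after thinning to 1000 UMIs, where Icos was at 1.57 on fewer than 20 UMIs and Cd27 turned direction (5 sensitive and 0 resistant UMIs), and Cd27 was not called with at least 100 UMIs. Lineage markers differed in that gate as well, with Cd163l1 at a ratio of 2.82 (1.94 to 4.25), Ncr1 at 0.577 (0.382 to 0.888) and the cytotoxic gene Prf1 at 0.355 (0.194 to 0.657), and their part in these calls was not tested. In NK cells 3 of 5 passed higher (Icos, Cd28 and Cd27) and 1 lower (Tnfrsf9), against 20.6% and 10.3% of genes, but the intervals of Icos (0.964 to 5.84) and Cd27 (0.883 to 3.70) included 1. After thinning to 1000 UMIs none of these 4 was called, with Tnfrsf9 at 0.702 and with Cd28 and Cd27 turned to 0.624 and 0.819 on few UMIs, and with at least 100 UMIs required Icos, Cd28 and Cd27 were not called. The small gates have few UMIs per gene, and large shares of all genes passed the fold there, so in Foxp3+ and gamma-delta cells the members' counts were near that background. The median ratio over all tested genes lay between 1.05 and 1.14 in the 5 gates, and the median of the members with enough UMIs was 1.32 in CD8, 1.33 in CD4, 1.21 in Foxp3+, 0.884 in gamma-delta and 1.76 in NK cells. Relative to the median gene of the CD8 gate, Icos was at 2.27, Cd27 at 1.39 and Tnfrsf9 at 0.796.

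**Figure D2:**
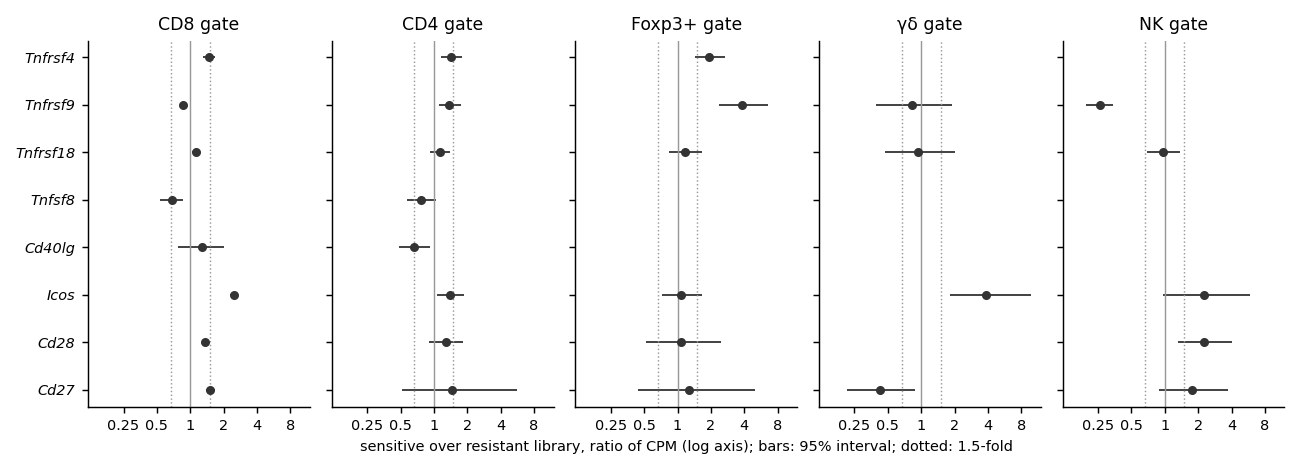
Ratio of the level in the sensitive over the resistant library (log axis) for each member in each gate where it had at least 20 UMIs over both libraries, with 95% exact conditional binomial bars and dotted lines at 1.5-fold. Icos lay at 2.48 in CD8 cells, while Tnfrsf9 lay at 3.82 in Foxp3+ cells and 0.26 in NK cells.

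Icos in CD8 cells rested on 1727 sensitive and 1032 resistant UMIs, at 274 against 111 CPM, which gave a ratio of 2.48 (2.29 to 2.68). No single CD8 cell held more than 1.16% of those UMIs. The share of CD8 cells with an Icos UMI was 49.1% (46.4 to 51.9) for sensitive and 35.1% (32.8 to 37.5) for resistant tumors although the resistant cells were deeper, and 21.2% against 9.55% after thinning to 1000 UMIs. Of fibroblast or mural cells 1.82% and 3.31% had one. Over all the alternatives tried the ratio stayed between 2.27 and 2.68. In gamma-delta cells the ratio was 3.87 (1.81 to 9.88) on 102 and 7 UMIs, in CD4 cells 1.39 (1.06 to 1.87), and in Foxp3+ cells 1.08 (0.728 to 1.65).

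Cd27 in CD8 cells stood at 142 against 93.6 CPM, a ratio of 1.52 (1.38 to 1.67) just past the fold. It came below the fold with doublets kept (1.497) and when scaled to the median gene. Cd28 stood at 192 against 141 CPM, a ratio of 1.37 (1.26 to 1.48), and Tnfrsf4 at 75.4 against 51.3 CPM, a ratio of 1.47 (1.29 to 1.67) just short of the fold, which it passed in 4 of 13 alternatives. Tnfrsf18 was nearly level at 1.13 (1.05 to 1.23). On the other side of 1 were Tnfrsf9, at 0.869 (0.82 to 0.92), and Tnfsf8, at 0.679 (0.53 to 0.865), just inside the lower limit, which it passed in 6 of 13 alternatives. The Cd40lg ratio of 1.26 (0.782 to 2.04) was on 35 and 41 UMIs and gave no direction.

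In CD4 cells no member passed the fold, but of 13 alternatives Icos did so in 6 and Tnfrsf9 in 5, with ratios up to 2.01 and 2.13, Cd27 in 4, Tnfrsf4 in 1, and Cd40lg, lower in the sensitive library, in 5. Cd40lg was at 0.667 (0.488 to 0.927), at the limit of the fold, and Tnfsf8 at 0.763 (0.57 to 1.04). The receptors gave 1.44 (1.16 to 1.80) for Tnfrsf4, 1.38 (1.11 to 1.74) for Tnfrsf9, 1.39 for Icos, 1.28 (0.908 to 1.84) for Cd28 and 1.13 (0.93 to 1.39) for Tnfrsf18. The resistant CD4 gate had 46 cells, and the interval of Cd27 (0.515 to 5.62) was too wide to read. After thinning to 1000 UMIs the Cd27 ratio turned to 0.242, on 2 UMIs in each library.

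In Foxp3+ cells Tnfrsf9 stood at 1567 against 410 CPM, a ratio of 3.82 (2.38 to 6.53), and Tnfrsf4 at 2035 against 1048 CPM, a ratio of 1.94 (1.43 to 2.69). The resistant side had 12 cells, with 18 Tnfrsf9 UMIs in 7 of them and 18 of 46 Tnfrsf4 UMIs in 1 cell. With a mitochondrial limit of 5%, chosen after seeing the data, 1 resistant Foxp3+ cell was left and the Tnfrsf9 ratio was 1.08. Tnfrsf18, Icos, Cd28 and Cd27 gave ratios of 1.17, 1.08, 1.08 and 1.26, with intervals that all included 1. Over the alternatives these ratios ranged, in that order, from 0.791 to 1.38, 0.697 to 2.44, 0.944 to 1.85 and 0.944 to 2.13. In NK cells Tnfrsf9 stood at 178 against 686 CPM, a ratio of 0.26 (0.197 to 0.339). That ratio was 0.262 without the top cell of each library and 0.702 after thinning, on 15 and 10 UMIs.

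The lineages took different shares of the T and NK cells in the 2 libraries, so the members were also compared over all T and NK cells, with and without weighting by gate. CD4 cells made up 8.69% of sensitive T and NK cells but 2.39% of resistant ones, Foxp3+ cells 2.31% and 0.623%, and CD8 cells 61.8% and 82.3%. Tnfrsf4 over all T and NK cells stood at 266 against 81 CPM, a ratio of 3.28 (3.05 to 3.54), and Cd40lg at 40.4 against 13.8 CPM, a ratio of 2.93 (2.43 to 3.54). Giving the resistant gates the UMI shares of the sensitive library, with the cells outside the gates as a sixth group, brought these ratios to 1.70 and 0.969. Tnfsf8 went from 1.71 to 0.904 and Tnfrsf18 from 1.72 to 1.24. Icos kept most of its difference, from 2.62 to 2.03, and Cd28 (1.45 to 1.38), Cd27 (1.34 to 1.36) and Tnfrsf9 (1.12 to 1.05) moved little. The cells outside the gates held 39.5% of the sensitive and 31.7% of the resistant Tnfrsf4 UMIs, at 479 and 243 CPM, so the weighting is only as good as that mixed group. The depletion of other cells before loading, and the unequal loss of barcodes at the mitochondrial limit, can also set the shares.

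**Figure D3:**
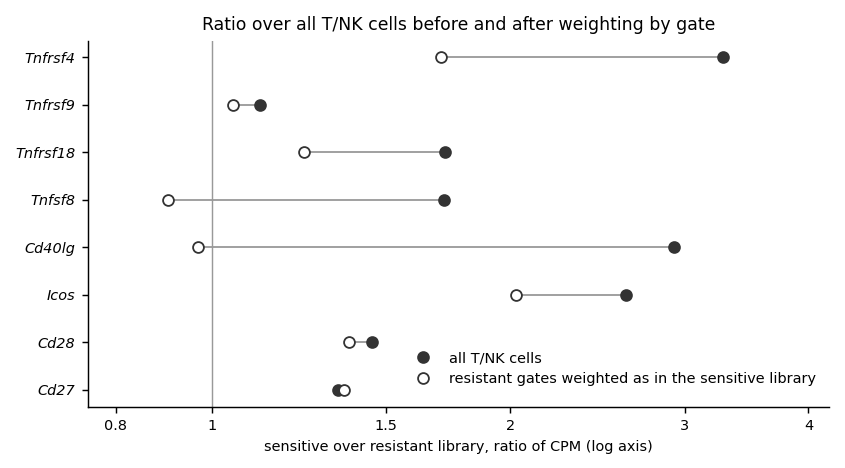
Ratio of the sensitive over the resistant library for each member (log axis), over all T and NK cells (filled) and with the resistant gates weighted by the sensitive library's UMI shares (open). Cd40lg moved from 2.93 to 0.969 and Tnfsf8 from 1.71 to 0.904, while Icos stayed at 2.03 or above.

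Within CD8 cells the members were compared between cells with UMIs of both Pdcd1 and Havcr2, inhibitory receptors of chronically stimulated T cells, and cells with neither. The first kind made up 206 sensitive and 302 resistant cells, 16% and 19% of the gate, and the second 514 and 433 cells. Tnfrsf9 had the largest ratio between these states in the sensitive library, and Tnfrsf4 in the resistant one (4.14). Tnfrsf9 stood at 565 CPM in cells with both and 59.9 CPM in cells with neither in the sensitive library, a ratio of 9.42 (7.76 to 11.5). In the resistant library it stood at 496 against 126 CPM, a ratio of 3.93. Between the libraries, Tnfrsf9 was at 1.14 (1.04 to 1.25) in cells with both and 0.474 (0.376 to 0.596) in cells with neither, so its ratio over the whole gate mixed opposite sides of 1.

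Tnfrsf4, Cd27 and Icos were also higher in the cells with both receptors. The ratios were 3.59 and 4.14 for Tnfrsf4, 3.52 and 2.12 for Cd27, and 2.41 and 1.74 for Icos in the sensitive and resistant library. Tnfrsf18 (1.89 and 1.28) and Cd28 (1.49 and 1.29) differed less. Tnfsf8 went the other way, at 0.453 and 0.327, on 8 and 19 UMIs in the cells with both. Cells with both receptors were deeper (median 4749 and 6626.5 UMIs, against 3410 and 3641), which CPM scales out but which also raises the chance of being placed there.

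**Figure D4:**
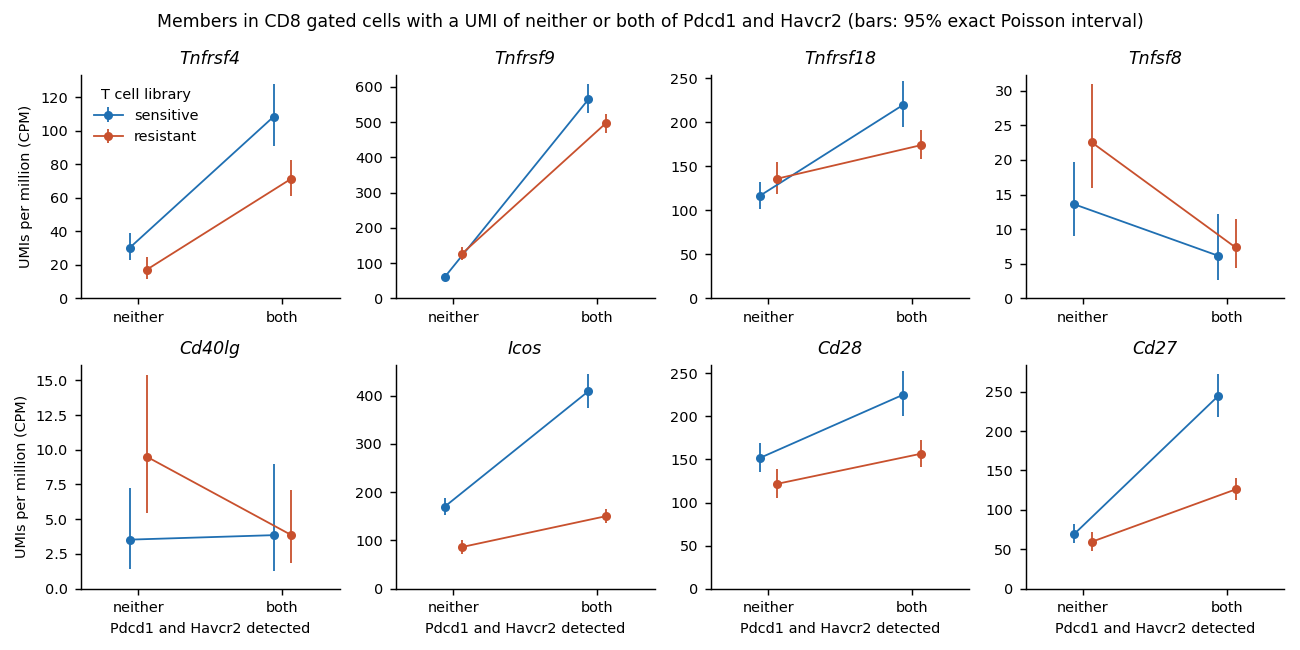
Level of each member (CPM, linear axis from 0) in CD8 gated cells with a UMI of neither or of both of Pdcd1 and Havcr2, in the sensitive (blue) and resistant (red) library, with 95% exact Poisson bars. Tnfrsf9 stood at 59.9 and 565 CPM in the sensitive library, and Icos of the sensitive library lay above the resistant one in both states.

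The Icos difference between the libraries was present in each of the 4 CD8 states given here. It was 2.73 (2.39 to 3.12) in cells with both Pdcd1 and Havcr2, 1.97 (1.62 to 2.41) in cells with neither, 2.15 (1.89 to 2.44) in cells with a UMI of the proliferation genes Mki67 or Top2a, and 2.68 (2.43 to 2.97) in the rest. The Cd27 difference was 1.94 (1.66 to 2.27) in cells with both receptors and 1.17 (0.899 to 1.53) in cells with neither. Proliferating and other CD8 cells were close for most members, and the largest gap was in Tnfrsf4, at 1.49 and 1.58 times the level of the other cells.

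In the CD4 gate 70 of 181 sensitive cells and 5 of 46 resistant cells had a UMI of Il4, Il5 or Il13, the cytokines of type 2 helper cells. Tnfrsf9 was 3.17-fold and 4.45-fold higher in those cells than in the other CD4 cells, at 1030 against 325 CPM in the sensitive library and 1363 against 307 CPM in the resistant one. Cd40lg was 1.85-fold and 2.68-fold higher. Tnfrsf4 (0.918 and 0.623), Tnfrsf18 (0.948 and 0.678), Tnfsf8 (0.904 and 0.884) and Icos (0.882 and 0.779) were lower in value, on 9 to 16 UMIs in the 5 resistant cells. The intervals of these ratios all included 1. Cd28 was at 0.667 (0.522 to 0.852) in the sensitive and 1.11 (0.439 to 2.47) in the resistant library, the second on 8 UMIs in the cells with these cytokines. In the CD4 cells without these cytokines the Cd40lg ratio between the libraries was 0.606 (0.387 to 0.966) and that of Cd28 was 1.59 (1.07 to 2.44). In the cells with them the Cd40lg ratio was 0.418 (0.26 to 0.706) and that of Cd28 was 0.959 (0.471 to 2.27), on 20 and 8 resistant UMIs. The Tnfrsf9 ratio was 1.06 (0.75 to 1.53) in the cells without and 0.756 (0.559 to 1.04) in the cells with these cytokines, both below the 1.38 of the whole gate, which lies within the first interval only.

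The partners that bind the members were measured in the same libraries, which still held other cells of the tumor. These were the cells left after the depletion, so they need not stand for such cells in the whole tumor. Cd86 and Cd40 were highest in dendritic cells, Cd86 at 191 and 182 CPM and Cd40 at 184 and 71.5 CPM in the sensitive and resistant library. Macrophages or monocytes had 86.7 and 113 CPM of Cd86 and 47.5 and 47.4 CPM of Cd40. Cd80 stood at 62.6 and 39.0 CPM in dendritic cells, and Icosl, the ligand of Icos, at 27.8 and 17.3 CPM on 8 UMIs in each library. Tnfsf9, the ligand of Tnfrsf9, was highest in macrophages or monocytes (46.2 and 42.5 CPM). Tnfsf18, the ligand of Tnfrsf18, had at most 10 UMIs in any population, and Tnfrsf8, the CD30 receptor of Tnfsf8, had 11 UMIs in sensitive and 0 in resistant CD4 cells. The dendritic group held 20 sensitive and 41 resistant cells.

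Some partners gave UMIs in the T cell gates as well, at low levels. In CD8 cells Tnfsf4, the ligand of Tnfrsf4, was lower in the sensitive library at 3.97 against 10.7 CPM (ratio 0.37, 0.229 to 0.579), and so were Cd70, the ligand of Cd27, at 0.793 against 5.36 CPM (0.148, 0.0461 to 0.369) and Cd80 at 8.73 against 13.7 CPM (0.637). Tnfsf9 was higher at 10 against 5.46 CPM (1.83, 1.25 to 2.70). Of the 6 partners with at least 20 UMIs in CD8 cells, 1 was higher and 3 lower past 1.5-fold, where 8.46% and 4.92% of genes were. Marker sums of dendritic cells (3.17 against 9.96 CPM) and neutrophils (3.02 against 24.7 CPM) in CD8 cells were also lower in the sensitive library, and those of macrophages or monocytes higher (33.3 against 25.0 CPM). Fibroblast or mural cells had 1 Tnfsf4 UMI in each library and 0 of Cd70. Fibroblast or mural cells, dendritic cells and neutrophils gave 7.36, 62.6 and 29.8 CPM of Cd80 in that library, and the part of other cells' RNA in the CD8 values was not tested. Cd70 in CD4 cells stood at 33.3 and 23.0 CPM, above the CD8 level in both libraries.

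**Figure D5:**
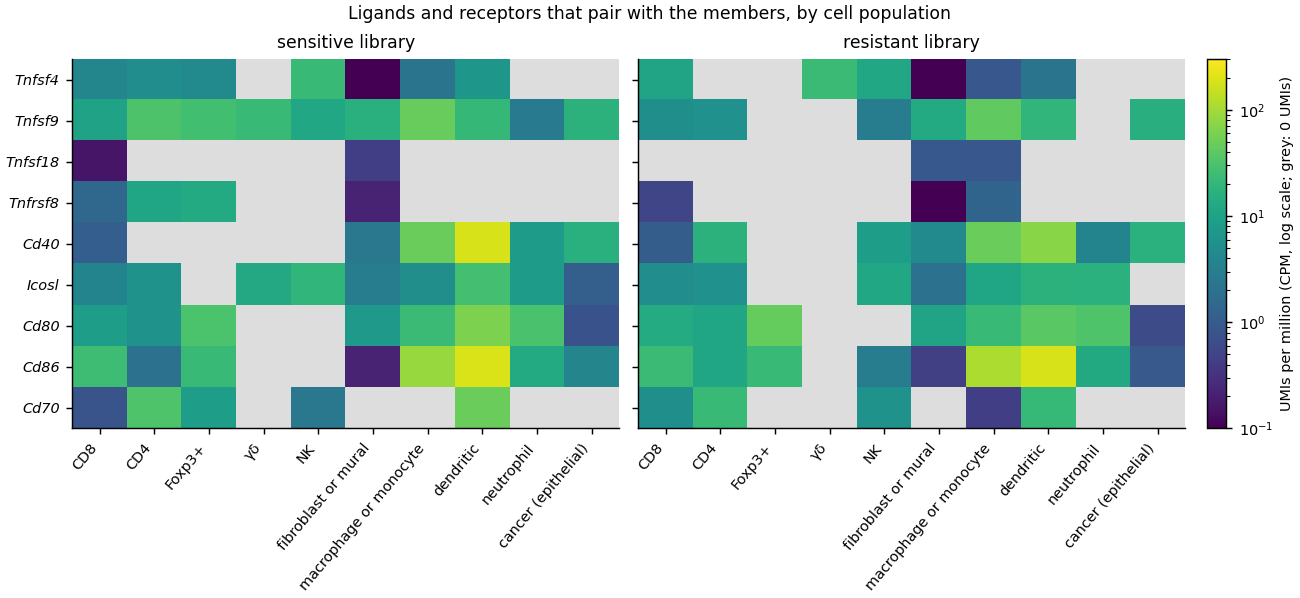
Level of each partner (CPM, logarithmic color scale, grey for 0 UMIs) in the 5 lineage gates and in 5 other cell populations of the sensitive and resistant library. Cd86 and Cd40 were highest in dendritic cells of both libraries, at 191 and 182 CPM and at 184 and 71.5 CPM, and Tnfsf18 was nearly empty.

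Related lists gave the setting of the CD8 differences. Of 8 other costimulatory molecules, 7 had at least 20 UMIs in CD8 cells, 3 were higher in the sensitive library past 1.5-fold (Cd2, Cd226 and Slamf1) and 0 lower, with a median ratio of 1.42. The shares over all genes of that gate were 8.46% and 4.92%. In CD4 cells 0 of the 6 with enough UMIs were higher and 4 lower (Tnfrsf1b, Cd226, Slamf1 and Cd5), with a median of 0.589, where 24.1% and 14.4% of genes were. Cd2 was among the genes that defined T and NK cells. Of the 4 inhibitory receptors 2 were higher (Ctla4 at 1.92 and Btla at 1.81, the second with an interval of 0.927 to 3.58) and 0 lower, with Pdcd1 at 1.06. Of 10 TRAF and NF-kB genes 0 passed in either direction in CD8 cells, with a median of 1.21, and in Foxp3+ cells 6 of the 7 with enough UMIs were higher and 1 lower, where 30.7% and 15.3% of genes were, but the resistant side had 12 cells and Nfkbia alone had an interval without 1 (2 to 3.56). None of the genes in these 3 lists with at least 20 UMIs passed 2-fold in CD8 cells, and those named were chosen after their values were seen. Of the genes that defined or checked the gates, Ncr1, which the NK gate required, passed it, at 12.9 against 5.03 CPM in CD8 cells (2.55, 1.76 to 3.74).

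Genes whose profile over the 10 gate and library combinations was most like each member are given as a description, with no test. They were Ccr7, Hif1a and Sgms1 for Tnfrsf4 (r of 0.98 each), Tiam1, Gata3 and Ccr7 for Tnfrsf18 (0.97, 0.95 and 0.95), and Smarca5, Mrpl14 and Raph1 for Tnfrsf9 (0.93, 0.91 and 0.91). Cd40lg and Tnfsf8 each had the other first and Il13 second (0.92 and 0.94), followed by Lgals7 (0.91) and Tnfsf11 (0.92). Icos was followed by Sla, Ass1 and Cyb5a (0.96, 0.96 and 0.95), Cd28 by Cish, Atxn10 and Ubash3a (0.95, 0.92 and 0.91), and Cd27 by Arel1, Crcp and Rlf (0.92, 0.92 and 0.89). The 10 profiles share 2 libraries, and the smallest gate held 12 cells.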

How the data were processed

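Single-cell 3′ RNA libraries were analysed from the deposited UMI counts per gene and barcode, which the authors made with Cell Ranger on mm10 without normalization (6.0.0 for the T cell libraries and 3.0.1 for the whole-tumor libraries, per the file headers). Barcodes entered with 500 or more genes and a mitochondrial share no higher than 10%. The 101 sensitive and 84 resistant cells with the top Scrublet scores (scanpy 1.11.5) were left out as likely doublets, a number set by a rate of 0.8% per 1000 barcodes. A T or NK cell had at least 3 UMIs of T and NK markers and more of them than of all other class lists together. Within it, the CD8, CD4, Foxp3+ and gamma-delta gates needed a Cd3 UMI and a UMI of Cd8a or Cd8b1, Cd4, Foxp3 or Trdc, and lacked the genes of the other gates, except that Foxp3+ cells could have Cd4 or Trdc. NK cells had Ncr1 and no Cd3, Cd4, Cd8b1 or Foxp3 UMI. No clustering was used.

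Counts were summed per gate and library and given as CPM with exact Poisson intervals, shares of cells with Clopper-Pearson intervals, and ratios with exact conditional binomial intervals, all at 95% (numpy 2.4.6, scipy 1.17.1). UMIs of 1 cell are not independent, so true errors are wider. Thinned shares used 1000 UMIs per cell. With 1 library per group a gene counted as past the fold at 1.5-fold between libraries, or at 2-fold over CD8 cells in both libraries, with at least 20 UMIs. Likeness used log2(CPM + 10) and genes with at least 200 UMIs. The named genes were the 8 members, their partners, genes of the other lists past 2-fold in CD8 cells and the 3 most alike genes of each member. Other list and marker genes were named after their values were seen. The members and lists were chosen with earlier results of these data known. The scripts were tested on simulated data. Whole-tumor libraries, which list other features, were used only for values in the closing section.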

Additional observations from a re-analysis of the deposited data

Results flagged for a closer look

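Tnfrsf9 differed between the libraries in opposite directions by gate. The ratio of the sensitive over the resistant library was 1.38 in CD4 and 3.82 in Foxp3+ cells, and 0.869 in CD8 and 0.26 in NK cells, with intervals that lay on 1 side of 1 in these 4 gates. It was 0.824 (0.394 to 1.89) in gamma-delta cells. Within the CD4 gate, where 38.7% of sensitive and 10.9% of resistant cells had a UMI of Il4, Il5 or Il13, it was 0.756 (0.559 to 1.04) in those cells and 1.06 (0.75 to 1.53) in the rest. Within the CD8 gate it was 1.14 (1.04 to 1.25) in cells with Pdcd1 and Havcr2 UMIs and 0.474 (0.376 to 0.596) in cells with neither. The Foxp3+ ratio was 1.08 at a mitochondrial limit of 5%, with 1 resistant cell left, and the NK ratio 0.702 after thinning. Cd27 was at 1.52 in CD8 and 0.425 in gamma-delta cells, the latter on 24 and 15 UMIs. After thinning to 1000 UMIs the gamma-delta gates held 5 and 0 Cd27 UMIs, the other direction. With 1 library per group the difference between gates was not tested.

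In the whole-tumor library labelled resistant, the 10 barcodes with UMIs of Ptprc and a Cd3 gene had Tnfrsf9 at 464.5 CPM (24 UMIs in 3 cells, 298 to 691). The corresponding 50 barcodes of the control-labelled library gave 194 CPM (124 to 289), and the 6 of the sensitive-labelled library 0 UMIs. The source fields of the resistant-labelled and control-labelled libraries both name sensitive tumors, so these libraries are called by their titles. The libraries differ in depth and cell number, and this difference was not tested.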

How the results depend on the processing

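In the comparison of gates, 7 pairs of member and gate were higher and 7 lower than CD8 in both libraries, and under the alternatives the counts stayed between 6 and 8 in each direction. The pairs themselves changed more. After thinning, 6 of the 7 higher and 4 of the 7 lower pairs were the same as before. Lost were Cd40lg in CD4 cells on the higher side, and Cd27 in CD4 and NK cells and Cd40lg in NK cells on the lower side. Pairs of member and gate past 1.5-fold between the libraries numbered 8 higher and 2 lower in the sensitive library. The higher count became 5 with at least 100 UMIs, 14 with no filter on UMIs, and 13 with a mitochondrial limit of 5%. The lower count became 4 with a 20% limit, 4 when scaled to the median gene, 1 after thinning, 1 with at least 100 UMIs and 5 without cells with Mki67 or Top2a. After thinning, 4 of the 8 higher pairs and 0 of the 2 lower ones were the same pairs as before. Thinning to 1000 UMIs turned Cd28 and Cd27 in NK cells to ratios of 0.624 and 0.819, on 4 against 3 and 7 against 4 UMIs, Cd27 in gamma-delta cells to 5 against 0 UMIs, and Cd27 of resistant NK over CD8 cells to 1.47, and it moved Cd27 of resistant CD4 over CD8 cells from 0.246 to 0.89. It also turned the Cd27 ratio between the libraries in CD4 cells to 0.242, on 2 UMIs in each library. The cause was not tested beyond the fewer cells or UMIs that these settings leave. Of 395 recomputed ratios between the libraries 366 stayed within the main interval, and of 832 over CD8 760 did. The 5% limit, leaving out the cell with most UMIs of a member, and leaving out shared barcodes were chosen after seeing the data. The number of cells, 12 and 19, limits the resistant Foxp3+ and gamma-delta gates, whose median depths of 3411.5 and 3246 UMIs per cell were not below the 2918.5 and 3246 of the sensitive gates. No paired analysis was possible because each group had 1 library.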

Other observations

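The whole-tumor libraries held few T cells, so the members' values there are given without comparison. In the control-labelled library the 50 barcodes with Ptprc and Cd3 UMIs had 32 UMIs of Tnfrsf18 (259 CPM), 21 each of Tnfrsf4 and Cd28 (170 CPM), 14 of Icos (113 CPM), 11 of Cd27 (89 CPM), 4 of Cd40lg and 2 of Tnfsf8. The 10 barcodes of the resistant-labelled library had 15 UMIs of Tnfrsf18, 12 of Tnfrsf4, 9 of Cd28, 7 of Icos, 4 of Cd27, 1 of Cd40lg and 0 of Tnfsf8. The 6 barcodes of the sensitive-labelled library had 4 UMIs of Cd27, 1 of Tnfrsf18 and 0 of the other members.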
